A study of Homo sapiens with 18 samples.

Results

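CADPS2 encodes CAPS2, one of the calcium-dependent activator proteins for secretion. It was measured in HEK cells, an established human embryonic kidney line, by 1 probe set, the only one of 16098 probe sets with a gene symbol that carries its name, and it is 1 of 14884 genes measured. The gene was selected on its difference between 3 lines labelled ATXN1L knockout and 3 wild-type lines, so that difference is described below without a test. The KO-labelled lines were A10, A30 and B21, and the wild-type lines were the parental cells together with N4 and N8, which are CRISPR controls, with 3 arrays per line and 18 in all. Per the labels, CRISPR-treated cells were selected in puromycin and grown out as single colonies, so each edited or control line is 1 clone, and all lines were kept in the same serum-containing medium. ATXN1L is a partner of the transcriptional repressor CIC, and the series title names knockouts of both, while the lines used here carry the ATXN1L label. ATXN1L's own probe set averaged 7.37, 7.39 and 7.48 in A10, A30 and B21, against 7.11, 7.17 and 7.21 in parental, N4 and N8, so it was not lower in the lines labelled knockout. It was called higher in A30 by 0.22 and in B21 by 0.32 (limma adjusted p = 0.016 and 0.00312). It did not pass in A10 or on line means (limma adjusted p = 0.0654 and 0.468). Where that probe set lies relative to the edit was not tested. Levels are log2 intensities throughout, and a level is not compared between genes.

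CAPS proteins act after a secretory vesicle has docked at the plasma membrane: they bind the lipid PI(4,5)P2 and the SNARE proteins and prepare, or prime, the vesicle for calcium-triggered fusion. CAPS2 is known mainly from neurons and endocrine cells, where it acts on dense-core vesicles that carry peptides and neurotrophins, and its close relative CAPS1, encoded by CADPS, shares that role. The arrays measure its transcript and not secretion.

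The CADPS2 locus on chromosome 7 also holds 2 short genes within its span, RNF133 and RNF148, which encode RING finger proteins. RNF148 tracked CADPS2 across arrays, as given below. The 250 bases upstream of the annotated RNF148 start are shown because they are the sequence of this locus at hand (RefSeq, GRCh38.p14, chr7:122702923-122703172, minus strand, read 5′ to 3′):
RNF148: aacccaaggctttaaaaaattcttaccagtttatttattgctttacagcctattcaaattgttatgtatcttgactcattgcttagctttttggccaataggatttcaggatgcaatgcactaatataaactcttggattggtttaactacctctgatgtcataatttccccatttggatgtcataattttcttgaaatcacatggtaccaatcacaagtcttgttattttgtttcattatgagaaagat
This stretch holds 32% G and C. Capitals would mark the letters TGAATGAA or TGAATGGA on either strand, octamers known as recognition sequences of CIC, and none is present in it or in the next 50 bases. Other forms of the sequence were not searched. No window at the start of CADPS2 itself was at hand, so whether it holds an octamer was not tested. Of all 35116 RefSeq windows of 300 bases at gene starts, 2.63% hold one of these octamers. None of the 12 windows of the 10 nearby genes with a window holds one, and of the 12 windows of 11 genes named below for their likeness to CADPS2, 1 does, at GALNT13.

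CADPS2 was lower in the KO-labelled lines on every array but 1. A10 had 6.66, 4.73 and 4.96 in replicates 1, 2 and 3. A30 had 5.12, 5.19 and 5.31, and B21 had 5.84, 5.43 and 5.87. The parental cells had 6.95, 7.07 and 7.05, N4 had 6.93, 6.92 and 7.05, and N8 had 6.22, 6.53 and 6.61. Replicate 1 of A10 stands among the wild-type arrays, and the other 8 KO-labelled arrays, from 4.73 to 5.87 with a median of 5.25, lie below all 9 wild-type arrays, from 6.22 to 7.07 with a median of 6.93. The gap between these 2 ranges was 0.35. Of all 9686 tested genes, 1.6% had no overlap between the same 8 and 9 arrays, in either direction, and nothing is read from this for CADPS2, which was selected on the contrast. On the 8 arrays CADPS2 stood between the 21.7th and the 44.4th percentile of all named genes of its array, against the 49.9th to the 66th on the wild-type arrays. On 6 of the 8 it was under 5.6, the value that a gene had to exceed on at least 3 arrays to be tested, so its level there is in the range of the dimmer genes.

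**Figure D1:**
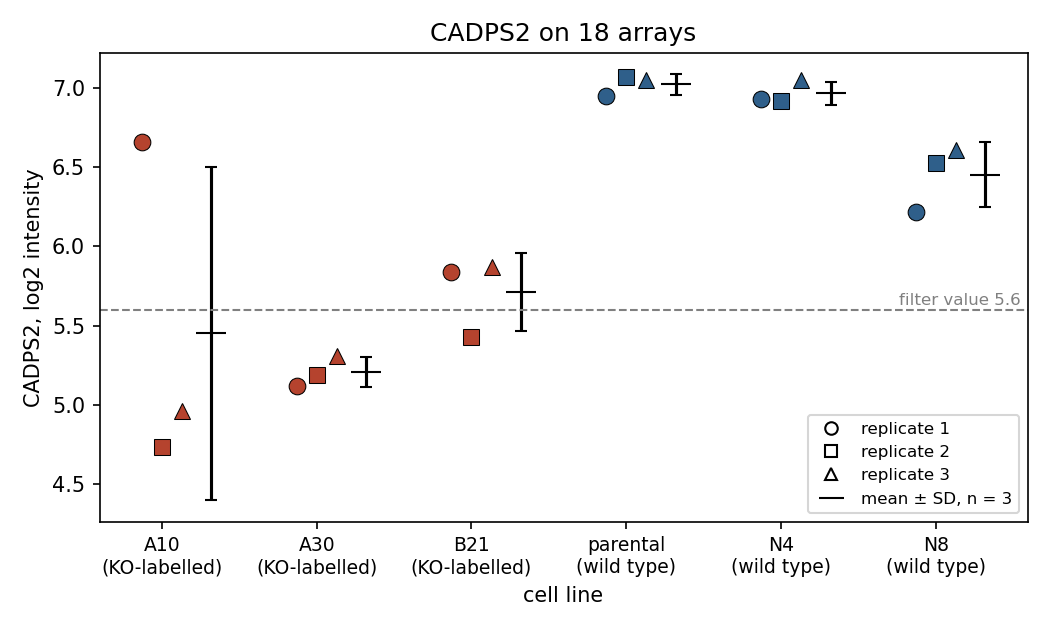
CADPS2 log2 intensity (vertical axis) on each of the 18 arrays, by cell line, with KO-labelled lines in red and wild-type lines in blue; marker shapes give the replicate number, bars the mean ± SD of 3 arrays, and the dashed line the filter value of 5.6. Replicate 1 of A10, at 6.66, lies among the wild-type arrays, and the other 8 KO-labelled arrays lie at 5.87 or lower.

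Of the KO-labelled lines, A10 averaged 5.45 ± 1.05, A30 5.21 ± 0.10 and B21 5.71 ± 0.25, against 7.02 ± 0.06 for the parental cells, 6.97 ± 0.07 for N4 and 6.45 ± 0.21 for N8 (SD, n = 3 arrays each). The mean of the KO-labelled lines was 5.46 ± 0.25, against 6.81 ± 0.31 for the wild-type lines (SD, n = 3 lines each), a difference of −1.36 ± 0.17 (limma standard error), or 2.56-fold on the linear scale. That was the 5th lowest difference of the 9686 genes tested, and since the gene was selected on this contrast, the rank is a description. None of the 9686 genes (0%) passed an adjusted p of 0.05 in this comparison with limma on line means, while 937 had an unadjusted p under 0.05. Against the same wild-type lines, which all 3 differences share, A10 differed by −1.36 ± 0.26, A30 by −1.61 ± 0.26 and B21 by −1.10 ± 0.26. In these 3 comparisons 8.4%, 29.3% and 16% of all tested genes passed in A10, A30 and B21 in that order, in either direction. Without replicate 1 of A10, the KO-labelled mean was 5.26 ± 0.44 (SD, n = 3 lines), and the A10 difference was −1.97. Without N8 among the wild-type lines, the difference of the line means was −1.54. Transcript per cell and the number of cells that express the gene cannot be told apart in bulk RNA.

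The lines fell into an order with 2 clear steps. The parental cells and N4 overlapped, with means 0.06 apart. N8 followed 0.51 below N4, with no overlap of their arrays, and B21 followed 0.74 below N8, again with no overlap. B21 overlapped A10, and A10 overlapped A30. The place of A10 rests on its replicate 1: replicates 2 and 3 averaged 4.85, with 4.96 as the higher, below all A30 arrays, the lowest of which was 5.12. Without replicate 1, A10 is the lowest line and overlaps neither A30 nor B21. The steps among lines of the same genotype were not part of the contrast that selected CADPS2, although a selection on agreement between lines favours genes with small steps, and they were tested with limma on arrays and adjusted over all 9686 genes.

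Among the wild-type lines, N8 had less CADPS2 than the other two. It differed from the parental cells by −0.57 ± 0.10 (limma adjusted p = 0.00642) and from N4 by −0.51 ± 0.10 (limma adjusted p = 0.00913), with all 3 N8 arrays below all 6 arrays of parental and N4, whose lowest value was 6.92. These comparisons called 14% and 12.4% of all genes, against 0.485% for N4 minus parental, so N8 differed from the other controls at many genes and CADPS2 was 1 of them. With the spread taken from all 18 arrays, replicate 1 of A10 included, neither N8 call held (limma adjusted p = 0.242 and 0.319), and both held without that array in the spread (0.00385 and 0.00747). N4 and the parental cells differed by −0.06 ± 0.10 (limma adjusted p = 0.847). Among the KO-labelled lines, A30 differed from B21 by −0.51 ± 0.12 (limma adjusted p = 0.041, with 6.11% of genes called), and all 3 A30 arrays, up to 5.31, were below the lowest B21 array at 5.43. That call is borderline: it was lost in 5 of 6 fits without 1 array, at an adjusted p up to 0.138. N8, labelled ATXN1L wild type, had a CADPS2 level between those of the other controls and the KO-labelled lines.

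Replicate 1 was set against replicates 2 and 3, since arrays with the number 1 resembled each other across genes. In the wild-type lines replicate 1 differed by −0.17 ± 0.07 for CADPS2 (limma adjusted p = 0.119), while 9.99% of genes passed in that comparison. By line, replicate 1 differed from the mean of replicates 2 and 3 by −0.13 for A30, 0.19 for B21, −0.11 for the parental cells, −0.06 for N4 and −0.35 for N8. In A10 the difference was 1.82, opposite in sign to 4 of these 5 and over 5 times the size of any. Within replicate 1 alone, the KO-labelled lines differed from the wild-type lines by −0.83, with −0.04 in A10, −1.58 in A30 and −0.86 in B21. Within replicates 2 and 3, the difference was −1.62, with −2.03 in A10, −1.62 in A30 and −1.22 in B21. A30 and B21 were lower by over 0.8 in both sets of replicates, and A10 in the second set. CADPS2 was selected on these same arrays, so a drop in each part is favoured in advance and the split is a description.

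Replicate 1 of A10 was set against the other 2 A10 arrays at the genes where those differed most from the wild-type lines. CADPS2 in A10 replicates 2 and 3 differed by −1.97 from the wild-type level, the mean of its 3 lines, and replicate 1 covered 7.84% of that distance. Of 28 genes at least 1 lower in replicates 2 and 3 of A10, replicate 1 covered a median of 24.9% of the distance, with quartiles of 11.3% and 47.7% and a range from −34.9% to 119.7%. A smaller share was covered at 5 of the 28, EPHA7, TRIB1, F8A1, ENPP2 and PCDHB16, which are named because they fall below CADPS2, after their values were seen. Over all 36 genes that differed by at least 1 in either direction, the median was 22.6%, the lower quartile 5%, and 10 genes lay below CADPS2. The CADPS2 share moved between 2.68% and 15.58% with the choice of wild-type reference lines. The genes were chosen on replicates 2 and 3 without replicate 1, which by itself favours a smaller share in replicate 1. No other array was treated in this way. This is 1 array and no test was made.

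The nearest genes on chromosome 7 give the setting of the locus. Of the 5 tested genes on each side, the order being CTTNBP2, TSPAN12, AASS, FEZF1, FEZF1-AS1, then CADPS2, then WASL, POT1, ZNF800, GCC1 and ARF5, none passed for KO-labelled against wild-type lines, as none of all genes did, and their median difference was 0.06. The lowest difference among the 10 was that of FEZF1-AS1, an antisense RNA gene beside the zinc finger gene FEZF1 and the next tested gene on one side of CADPS2. WASL, the next on the other side, differed by 0.09 ± 0.09. FEZF1-AS1 had 6.64, 6.0 and 5.94 in A10, 6.15, 6.23 and 6.4 in A30 and 6.27, 5.61 and 5.84 in B21, against 6.82, 6.59 and 6.61 in the parental cells, 6.71, 6.53 and 6.84 in N4 and 6.80, 6.44 and 6.66 in N8. The 8 KO-labelled arrays other than replicate 1 of A10, from 5.61 to 6.4, lay below all wild-type arrays, from 6.44 to 6.84, and replicate 1 of A10 lay within the wild-type range, as for CADPS2.

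FEZF1-AS1 fell by 0.47 ± 0.14 in A10 (limma adjusted p = 0.0488), by 0.41 ± 0.14 in A30 (limma adjusted p = 0.0403) and by 0.76 ± 0.14 in B21 (limma adjusted p = 0.00161), all against the same wild-type lines. On line means its difference was −0.55 ± 0.10 (limma adjusted p = 0.304). Unlike CADPS2, it was not lower in N8, where it differed from the parental cells by −0.04 ± 0.11 (limma adjusted p = 0.85). FEZF1, a transcription factor gene of the developing brain, fell by 0.42 ± 0.10 in B21 (limma adjusted p = 0.0113). WASL, which encodes the actin regulator N-WASP, rose in A30 by 0.20 ± 0.06 (limma adjusted p = 0.0165). The remaining neighbours passed in none of the 3 KO-labelled lines. Of the 10, then, 1 fell in A10, 1 rose and 1 fell in A30, and 2 fell in B21. Over all genes 8.4%, 29.3% and 16% were called in those lines, so nothing is read from these counts.

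In N8 other genes near CADPS2 were lower too. Of the 10, 3 fell against the parental cells: TSPAN12, a tetraspanin gene, by 0.78 ± 0.09 (limma adjusted p = 0.000468), AASS, the first enzyme of lysine breakdown, by 0.46 ± 0.09 (limma adjusted p = 0.0092), and WASL by 0.23 ± 0.06 (limma adjusted p = 0.0412). In all, 8 of the 10 were lower in N8, ARF5 was higher by 0.05 and GCC1 was level after rounding, with a median of −0.19. Over all genes 14% were called in either direction, 49.1% were lower and the median was 0.003. With each line centred on the running median of the 41 tested genes around each gene, an alternative added after seeing the data, the N8 difference of CADPS2 was −0.38 against the parental cells and no longer passed (limma adjusted p = 0.0595). Against N4 it was −0.41 and passed (limma adjusted p = 0.045), and the difference of the KO-labelled lines was −1.44. The running median at CADPS2 was −0.14 in N8, against 0.05 in the parental cells.

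**Figure D2:**
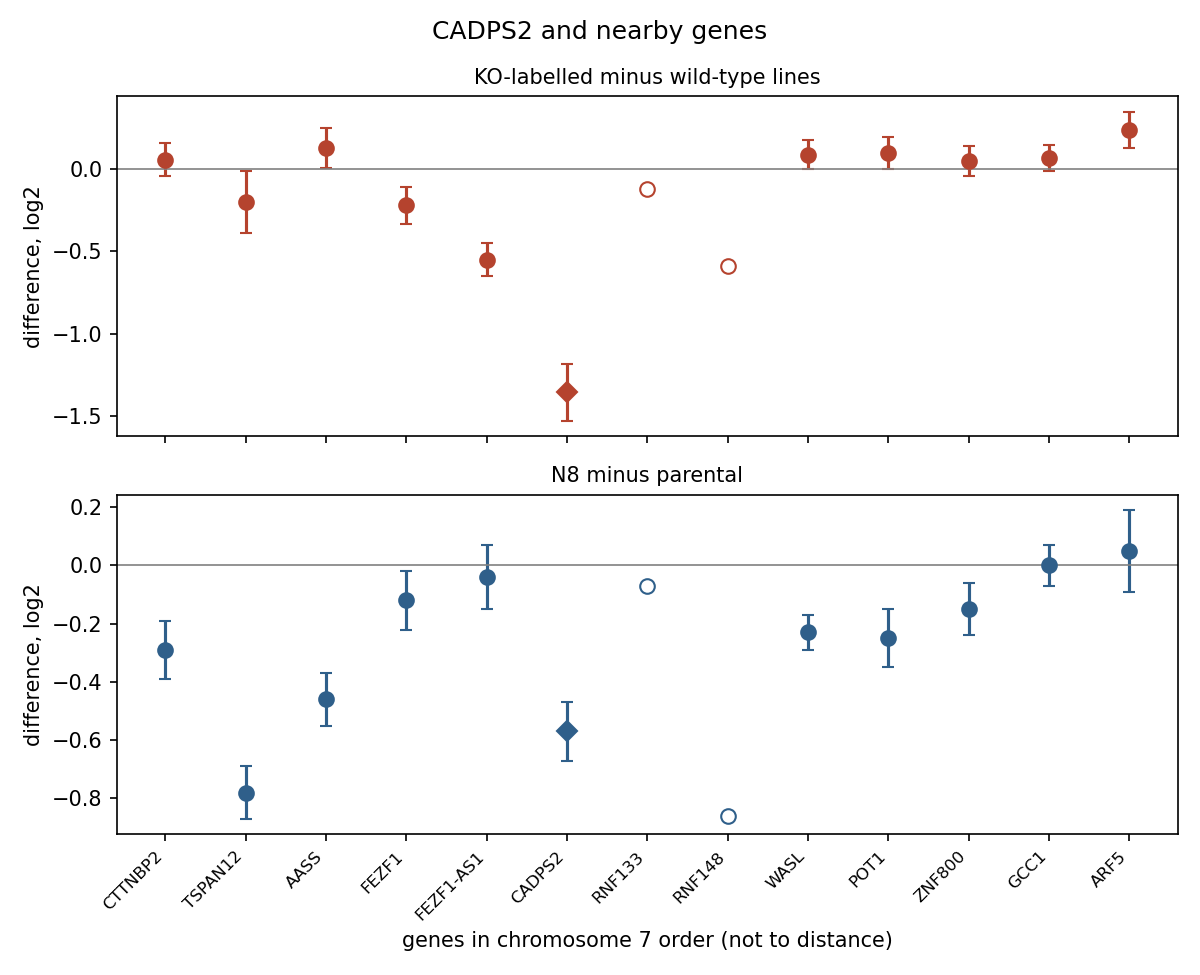
Difference on the log2 scale (vertical axes) of CADPS2 (diamond) and nearby genes in their order on chromosome 7, for KO-labelled minus wild-type lines (upper panel) and N8 minus parental (lower panel); bars are limma standard errors, and open points are genes under the filter, with no test. CADPS2 is the lowest of the tested genes in the upper panel at −1.36, and in the lower panel TSPAN12, at −0.78, lies below CADPS2 at −0.57.

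RNF148, which lies within the CADPS2 span, was too dim to be tested. It had 4.23, 3.07 and 3.15 in A10, 3.41, 3.42 and 3.37 in A30 and 3.53, 3.60 and 4.05 in B21, against 4.70, 4.23 and 4.58 in the parental cells, 4.0, 4.31 and 4.36 in N4 and 3.62, 3.60 and 3.72 in N8. It repeated 3 features of CADPS2: low values in the KO-labelled lines (means of 3.54 ± 0.17 against 4.12 ± 0.44 in wild-type lines, SD, n = 3 lines each), a low N8 (−0.86 against the parental cells) and a high replicate 1 in A10. Its groups overlapped. Its correlation with CADPS2 was 0.877 over the 18 arrays, the 13th highest of 14883 genes, and 0.831 over the 9 wild-type arrays. These points share lines and arrays. Whether its probe set reads RNF148 or transcript of CADPS2 was not tested. RNF133, also within the span, stayed between 2.86 and 3.60 on all arrays.

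Genes whose level ran most like that of CADPS2 over the 18 arrays were taken as the 8 highest and the 4 lowest Pearson correlations among the tested genes. The highest was MYC, a growth-promoting transcription factor, at 0.935, followed by CDCA7L at 0.934, the chondroitin synthase gene CHSY3 at 0.919, the heparan sulphate sulphotransferase gene HS6ST3 at 0.913, the homeodomain gene ISL1 at 0.911, the ubiquitin ligase receptor gene DCAF16 at 0.901, the glycosyltransferase gene GALNT13 at 0.897 and AASDH at 0.895. The lowest were MALT1, a signalling protease, at −0.908, DRG1 at −0.906, the Golgi SNARE gene GOSR2 at −0.901 and CALR, the chaperone calreticulin, at −0.898. In all, 6 genes reached 0.9 and 3 reached −0.9. Arrays of a line share its clone and the arrays form a KO-labelled and a wild-type cluster, so the values describe these arrays and carry no p.

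MYC had 8.06, 7.0 and 7.07 in A10, 6.55, 6.59 and 6.75 in A30 and 7.72, 7.56 and 7.59 in B21, against 8.48, 8.66 and 8.64 in the parental cells, 8.21, 8.65 and 8.67 in N4 and 7.46, 8.16 and 8.0 in N8. Its groups overlapped, since N8 replicate 1 lay below all 3 B21 arrays, but it shared with CADPS2 the high replicate 1 of A10 and the low N8. Within the 9 wild-type arrays, its correlation with CADPS2 was 0.938 and that of CDCA7L 0.907. HS6ST3, ISL1 and AASDH were at 0.727, 0.812 and 0.725 there, whereas DCAF16 was at 0.386, CHSY3 at 0.041 and GALNT13 at 0.030. In N8, CHSY3 and GALNT13 averaged 5.95 and 6.48, against 5.81 and 6.31 in the parental cells and 6.17 and 6.67 in N4. Within the 8 KO-labelled arrays other than replicate 1 of A10, the correlation with CADPS2 was 0.682 for MYC, 0.76 for CHSY3 and 0.54 for GALNT13, and the highest of the 8 genes there was DCAF16 at 0.899.

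For 7 of the 12 genes the 8 KO-labelled arrays other than replicate 1 of A10 did not overlap the 9 wild-type arrays, and for all 7 replicate 1 of A10 lay within the wild-type range. Nothing is read from this count against the 1.6% of all tested genes, since the 12 were picked for correlation with CADPS2, whose own arrays separate in the same way. CHSY3 had 4.51 to 5.34 on those 8 arrays and 5.80 on replicate 1 of A10, against 5.57 to 6.39 on the wild-type arrays. MALT1, in the other direction, had 8.65 to 8.88 on the 8 arrays and 8.39 on replicate 1 of A10, against 8.08 to 8.47 on the wild-type arrays. The genes were chosen on all 18 arrays, that one included.

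**Figure D3:**
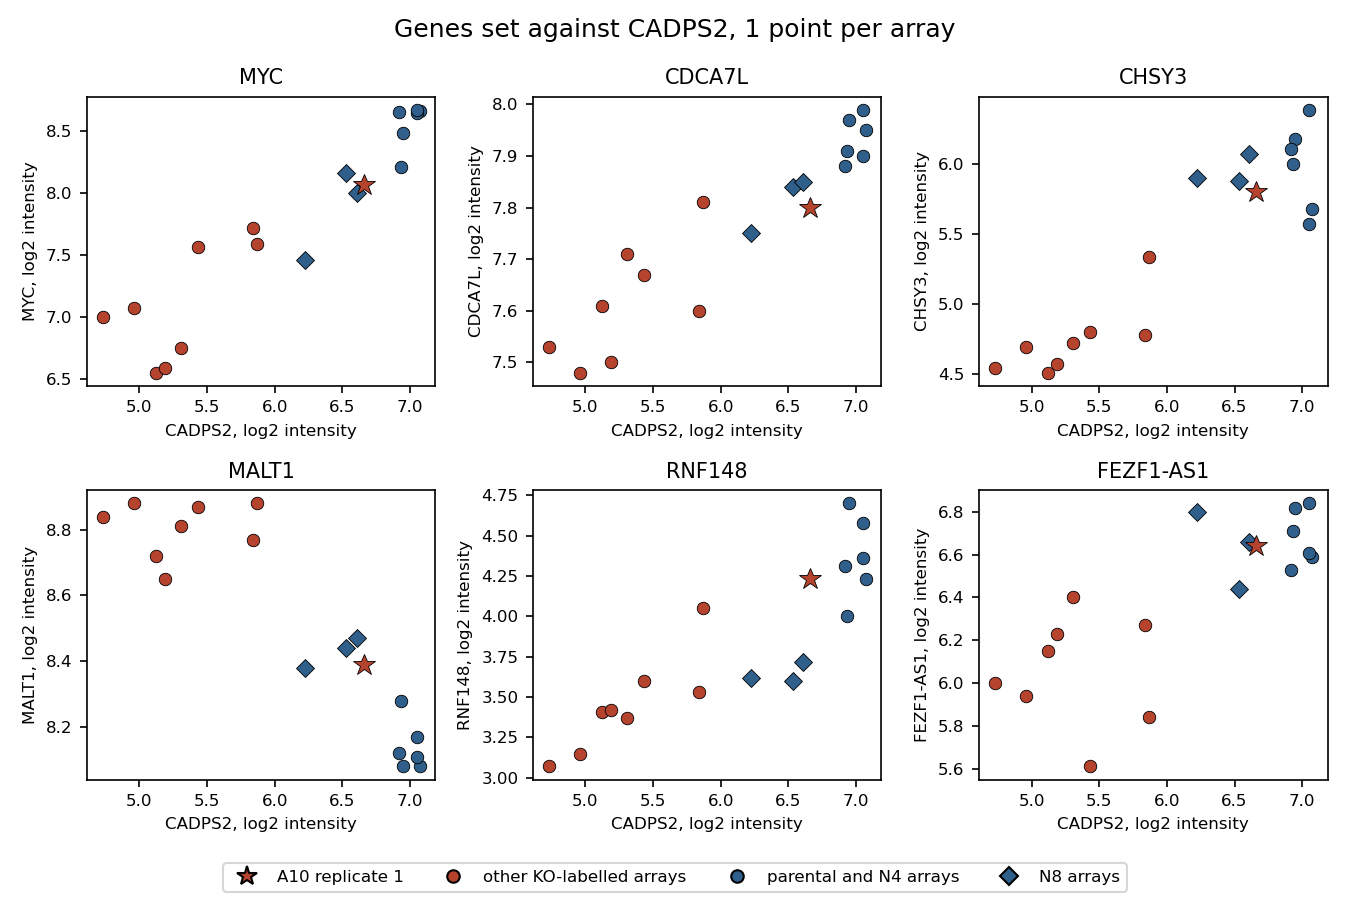
Log2 intensity of 6 genes (vertical axes) against that of CADPS2 (horizontal axes), 1 point per array: 4 genes named for their correlation and 2 nearby genes. Replicate 1 of A10 (star) falls with the wild-type arrays in each panel, and the N8 arrays (diamonds) lie below all parental and N4 arrays for MYC and RNF148 but overlap them for CHSY3 and FEZF1-AS1.

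The other genes of vesicle priming and exocytosis went both ways. Of 102 listed genes 75 had a symbol on the array, and 55 passed the filter. For KO-labelled against wild-type lines, 33 of the 55 were higher and 22 lower, with a median of 0.04 against −0.002 for all genes, 7 had an unadjusted p under 0.05, and none passed after adjustment. In A10, 5 rose and 3 fell (14.5%, against 8.4% of all genes), and without replicate 1 of that line 6 genes passed in place of 8. In A30, 10 rose and 6 fell (29.1%, against 29.3%), and in B21, 9 rose and 4 fell (23.6%, against 16%). The A30 and B21 counts include EDN1, and the B21 count SYTL2, which passed the filter only through A30 and B21, as given below. The A30 count also includes SYTL5, which passed the filter only through its wild-type and A10 arrays. On the line means the lowest difference of the 55 was that of SYT11, at −0.44.

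Of the CAPS and Munc13 family, the priming factors, all 6 relatives of CADPS2 had a symbol and 3 passed the filter. CADPS, encoding CAPS1, lay between 3.11 and 3.92 on the KO-labelled arrays and between 3.23 and 3.90 on the wild-type arrays, so it was dim in all lines and its groups overlapped. UNC13C and UNC13D were under the filter too. UNC13B, which encodes Munc13-2, had 7.67 to 7.95 on the KO-labelled arrays, against 7.22 to 7.96 on the wild-type arrays, and rose in A10 by 0.20 (limma adjusted p = 0.0399) and in B21 by 0.19 (limma adjusted p = 0.0293). The A10 and B21 means of 7.85 and 7.84 lay between those of N4 and the parental cells, at 7.80 and 7.90. N8 had 7.22, 7.30 and 7.27, against 7.96, 7.91 and 7.83 in the parental cells, a difference of −0.64 (limma adjusted p = 0.000368). UNC13A and BAIAP3 passed in none of the 3 lines.

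Of the 17 tested SNAREs and SNARE regulators, the fusion machinery itself, 1 rose and 1 fell in A10, 4 rose and 1 fell in A30, and 3 rose in B21. These are 11.8%, 29.4% and 17.6% of the 17, against 8.4%, 29.3% and 16% of all genes. STXBP5, which encodes the SNARE-binding protein tomosyn, had line means of 7.18, 7.35 and 7.40 in A10, A30 and B21, against 7.12, 6.99 and 7.03 in parental, N4 and N8. It rose in A30 by 0.31 (limma adjusted p = 0.00624) and in B21 by 0.35 (limma adjusted p = 0.00474). VAMP7, a vesicle SNARE, rose in the same lines by 0.22 and 0.26 (limma adjusted p = 0.0136 and 0.0107), and VAMP1 fell by 0.35 in A10 (limma adjusted p = 0.0236). The VAMP1 mean was 6.68 in A10, against 6.82, 7.01 and 7.28 in parental, N4 and N8. VAMP3, another vesicle SNARE, passed in none of the 3 lines, with a difference on line means of 0.15 ± 0.08.

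The list of calcium sensors left 8 tested genes, all synaptotagmin genes, and whether each of them senses calcium was not tested. Of the 8, SYT1, which encodes synaptotagmin 1, went opposite ways among the KO-labelled lines. It had 6.31, 6.19 and 6.25 in A10, 4.94, 5.05 and 4.82 in A30 and 5.29, 5.00 and 5.20 in B21, against 5.57 to 6.03 on the wild-type arrays. All 3 A10 arrays, replicate 1 included, lay above the wild-type range, and all arrays of A30 and B21 lay below it. SYT1 rose in A10 by 0.52 (limma adjusted p = 0.0015) and fell by 0.79 in A30 (limma adjusted p = 6.79e-06) and by 0.57 in B21 (limma adjusted p = 0.000396). SYT11 fell by 1.09 in B21 (limma adjusted p = 1.23e-06), with 6.48, 6.12 and 6.18 there against 7.11 to 7.55 on the wild-type arrays. SYT3 had the smallest unadjusted p of these synaptotagmin genes on line means, with a difference of −0.25 ± 0.09. SYT5 differed by 0.10 ± 0.10, and neither SYT3 nor SYT5 passed in any of the 3 lines. From the list of Rab3 and Rab27 genes and other genes linked to Rab proteins, 8 were tested. None of the 8 encodes a Rab3 or Rab27 protein, since no such gene had a symbol on the array. Of the 8, DENND4C rose in A30 by 0.59 and in B21 by 0.31 (limma adjusted p = 6.91e-05 and 0.0178). SYTL5 was lower in A30 by 0.87, a description, since without its wild-type arrays it would not have passed the filter. Its means were 5.53, 5.21 and 5.99 in parental, N4 and N8, against 4.71 in A30. The DENND4C mean was 7.89 in B21, against 7.83, 7.67 and 7.24 in parental, N4 and N8, so the B21 rise rests largely on a low N8. SYTL2 was higher in B21 by 0.41, which is a description, since it passed the filter only through A30 and B21. SYTL4 passed in none of the 3 lines.

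Among the 8 tested dense-core vesicle cargo and processing genes, EDN1, which encodes endothelin, ADM, which encodes adrenomedullin, and the carboxypeptidase gene CPD had the smallest unadjusted p on the line means. Of the 8, 1 rose in A10, 3 rose and 2 fell in A30, and 3 rose in B21. These are 12.5%, 62.5% and 37.5% of the 8, EDN1 included, against 8.4%, 29.3% and 16% of all genes. The 2 that fell in A30 were CPE and PAM, by 0.44 and 0.28 (limma adjusted p = 0.00128 and 0.0173). EDN1 had 4.33, 5.14 and 5.22 in A10, 5.67, 5.89 and 6.28 in A30 and 6.27, 6.74 and 6.92 in B21, against 4.17 to 5.22 on the wild-type arrays. A10 lay within the wild-type range and A30 and B21 lay above it. It passed the filter only through A30 and B21, since all its A10 and wild-type arrays are under 5.6, so it had to differ and its differences of 1.26 in A30 and 1.96 in B21 are a description. ADM rose in A30 by 0.63 and in B21 by 0.57 (limma adjusted p = 0.000172 and 0.00105). CPD rose in all 3 KO-labelled lines, by 0.21 in A10 and B21 and 0.28 in A30 (limma adjusted p = 0.0313 for A10, 0.0206 for B21 and 0.00129 for A30). VGF, a neuropeptide precursor gene, passed in none of the 3 lines. Endothelin and adrenomedullin are also made by cells without dense-core vesicles. Of the 11 tested genes of vesicle formation and CAPS partners, 1 rose and 1 fell in A10, 2 rose and 1 fell in A30, and 1 fell in B21. These are 18.2%, 27.3% and 9.09% of the 11, against 8.4%, 29.3% and 16% of all genes. VPS53, a subunit of vesicle tethering complexes, fell by 0.21 in A30 and by 0.18 in B21 (limma adjusted p = 0.0104 and 0.0476). VPS50 and CCDC186 rose in A30 by 0.39 and 0.29 (limma adjusted p = 0.00843 and 0.0015), and ARF5, the GTPase gene also listed above as a neighbour, passed in none of the 3 lines.

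**Figure D4:**
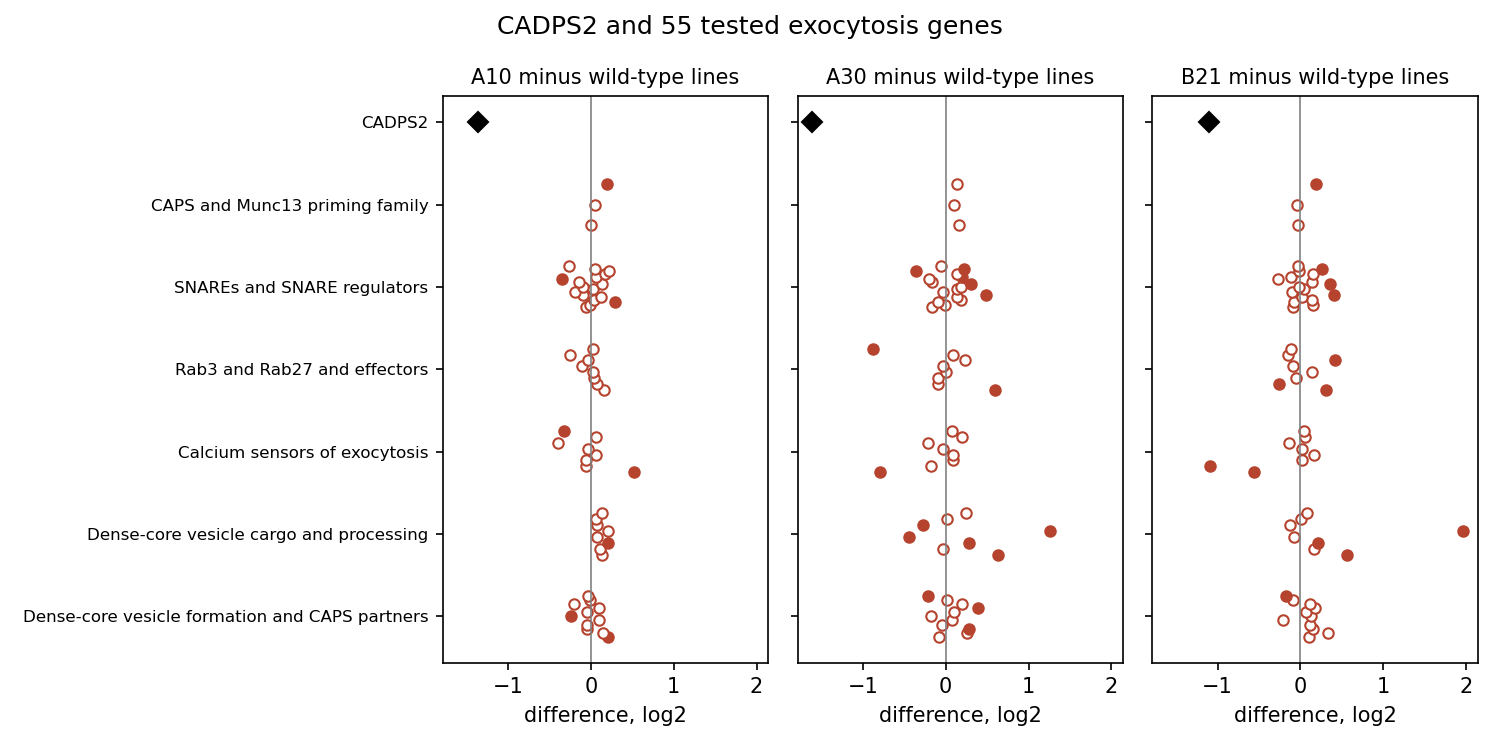
Difference on the log2 scale (horizontal axes) from the wild-type lines of CADPS2 (black diamond) and of 55 tested exocytosis genes in 6 lists (circles, filled where the limma adjusted p was under 0.05), for A10, A30 and B21. CADPS2 lies at −1.36, −1.61 and −1.10, and no circle in any panel is lower than SYT11 at −1.09 in B21.

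Markers of other cell types were checked beside these results. Of 12 neuronal markers, 4 had a symbol and all 4 were tested, with a mean level of 5.97 to 6.13 in the KO-labelled lines against 6.12 to 6.29 in the wild-type lines. Among them MAP2 fell in A30 (5.84, against 6.66, 6.73 and 7.16 in parental, N4 and N8, limma adjusted p = 0.000185), while SYN1, SYP and GAP43 passed in none of the KO-labelled lines. Of 9 adrenal chromaffin markers, 7 had a symbol, with a mean of 5.07 to 5.11 in the KO-labelled lines against 5.09 to 5.13. Of 12 kidney epithelial markers 6 had a symbol, with a mean of 5.54 to 5.72 against 5.62 to 5.72. The 4 leukocyte markers with a symbol, of 7, had a mean of 5.13 to 5.31 against 5.12 to 5.28, and the 6 fibroblast and keratinocyte markers, of 10, had 4.34 to 4.60 against 4.24 to 4.41. Single markers passed in both directions: the kidney receptor gene LRP2 fell by 0.52 in B21 and fell by 1.25 in N8 against the parental cells (limma adjusted p = 0.0121 and 0.000308), CD68 rose in B21 by 0.30 and in N8 by 0.77 (limma adjusted p = 0.0384 and 0.00116), and LUM fell by 0.34 in A30 (limma adjusted p = 0.0206). LUM was higher in B21 by 0.70, which is a description, since B21 was the only line with a LUM mean over the filter value of 5.6. Their part in the CADPS2 difference was not tested.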

How the data were processed

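RNA from 6 HEK lines was measured on 18 Affymetrix arrays. The authors deposited log2 values for each probe set on each array, made with Affymetrix Expression Console per the submitters' processing notes. Its version and normalization are not stated in the labels. The log2 scale was read from the deposited values, which ran from 0.57 to 14.84 with array medians from 5.09 to 5.18, so no further normalization and a pseudocount of 0 were used. Precision is limited by the number of arrays. Of 53617 probe sets, 16098 had 1 gene symbol in the platform annotation, 0 had several and 37519 had none. For 779 genes with several probe sets the brightest was used. Genes above 5.6, the 40th percentile, on at least 3 arrays were tested (9686).

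Genotypes were compared on line means, and lines on arrays, with limma 3.58.1 in R 4.3.3, two-sided, with Benjamini-Hochberg adjustment over all tested genes and a threshold of 0.05. Tests on arrays cover the spread between arrays of a line, which may be technical, and not that between clones. The KO-labelled against wild-type p of CADPS2 was left out because the gene was chosen on it. CADPS2, the lists of exocytosis genes and the markers were chosen with earlier results of these data known. Genes named are the 8 highest and 4 lowest correlations with CADPS2, the 5 nearest tested genes on each side, the genes within its span, the CAPS and Munc13 family, and up to 4 members of each other list with the smallest p for the line means. CPE and PAM are named besides because they fell in A30. Gene order came from the GRCh38.p14 annotation, since the build behind the arrays is not given. Alternatives covered normalization, probe set choice, filter, variance model, reference lines, replicate number, neighbouring genes, and leaving out arrays and lines. Tables were handled with pandas 2.3.3 and numpy 2.4.6 in Python 3.11.15, and figures drawn with matplotlib 3.10.9.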

Additional observations from a re-analysis of the deposited data

Results flagged for a closer look

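A single far value was looked for in CADPS2, the genes named for likeness, the nearby genes and the CAPS and Munc13 family. The other genes named above were not examined. Of 62 groups of arrays, 3 held one, where chance gives about 1 in 20. CADPS2 in replicate 1 of A10 was not flagged. MALT1 was at 8.39 in replicate 1 of A10, below the other 8 KO-labelled arrays, from 8.65 to 8.88. The telomere protein gene POT1 was at 7.98 in replicate 3 of N8, below the other wild-type arrays. UNC13C was at 2.43 in replicate 1 of A30, below the other KO-labelled arrays, and it was under the filter on low values.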

How the results depend on the processing

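Of 181 alternative values of the CADPS2 results, 163 were counted as the same. For tested results this meant the same direction and call, and for the others a shift under a set spread. That spread was the SD of the line's 3 arrays for A10, A30 and B21. For the genotype difference it was the SD of the KO-labelled line means, and for the A10 share that of the wild-type line means. For A10 it was 1.05, replicate 1 included, so wide shifts counted as the same. Blocks and the mean of probe sets could not change a CADPS2 difference. KO-labelled minus wild-type lines was −0.827 within replicate 1 and −1.623 within replicates 2 and 3, A10 was −0.04 within replicate 1, and A30 was −1.503 and −1.788 without parental and without N8 in the reference and −1.766 when centred on 41 neighbouring genes. The share of the A10 distance covered by replicate 1 ran from 2.68% to 15.58%. With the spread taken from 18 arrays, N8 minus parental (−0.57, limma adjusted p = 0.242), N8 minus N4 (−0.513, 0.319) and A30 minus B21 (−0.507, 0.363) no longer passed. Without replicate 1 of A10 in that spread all 3 passed (0.00385, 0.00747 and 0.0104). With no filter on dim genes A30 minus B21 did not pass (−0.507, limma adjusted p = 0.123). Centring on neighbours, added after seeing the data, gave −0.38 for N8 minus parental (limma adjusted p = 0.0595), −0.412 for N8 minus N4, which passed (0.045), −0.56 for A30 minus B21 (0.0577) and, turned in sign, 0.032 for N4 minus parental (0.97). Leaving out 1 array at a time, the KO-labelled difference ran from −1.559 to −1.238, A10 from −1.969 to −1.004, A30 from −1.659 to −1.564, B21 from −1.179 to −0.959, N4 minus parental from −0.098 to −0.033, N8 minus parental from −0.648 to −0.453, N8 minus N4 from −0.592 to −0.397, replicate 1 from −0.23 to −0.082, and A30 minus B21 from −0.648 to −0.428, which passed in 1 of 6 such fits. The cause of these shifts was not tested, and fits that leave out arrays also rest on fewer of them.

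Arrays with the same number tended to deviate together for numbers 1 and 2 and less so for 3: 15, 14 and 10 of 15 pair correlations were over 0.1, with medians of 0.324, 0.188 and 0.125 and lowest values of 0.165, 0.09 and −0.004, and 6, 6 and 3 of 6 arrays were closest to their own number. Not every pair was over 0.1 and the labels name no shared batch, so the numbers were not taken to pair the arrays. With the replicate number as a block the CADPS2 differences were the same (−1.358 for genotype, −1.364, −1.608 and −1.101 by line, −0.57 for N8 minus parental) and no call changed (limma adjusted p = 0.0342 for A30 minus B21). The block raised the genes called to 1379, against 814, in A10, to 108, against 47, in N4, to 2087, against 1359, for N8 minus parental, and to 1826, against 1204, for N8 minus N4. With no filter the counts were 510 in A10, 8 in N4, 741 for N8 minus parental, 709 for N8 minus N4, 203, against 592, for A30 minus B21, and 82, against 968, for replicate 1. With a trended, robust variance they were 955 for A30 minus B21 and 1537 for replicate 1. Without replicate 1 of A10, 2 neighbours of CADPS2 passed in A10, against 1. Of the 12 genes named for likeness, 8 were again among the most alike without replicate 1 of A10, 7 by Spearman correlation and 2 over the 6 line means, so that list depends on the choice of points. CADPS2 is dim in the KO-labelled lines, which limits how large a fold these arrays can show.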
